A study of Mus musculus with 3 samples.

Results

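The 10 genes that carry ions, water and small organic solutes across the cell membrane, or that control this transport, are described here in cells of the mouse intervertebral disc. They were chosen by symbol, as Slc12a2, Slc5a3, Slc6a6, Nfat5, Akr1b3, Aqp1, Aqp3, Trpv4, Atp1b1 and Lrrc8a, and are 10 of the 30406 gene identifiers that the libraries share. All animals were shh-cre:R26R-tdTomato mice at postnatal day 30 with no treatment. In this genotype Cre is driven from Shh and turns on the red protein tdTomato in cells that express Shh and in their descendants. Discs of the lumbar, thoracic and caudal spine were digested, sorted for tdTomato and profiled with the 10x Genomics 3' kit v3 in 3 libraries, which are replicates of 1 group and were each made from pooled litter-matched mice. With no second condition, the comparisons are between cell classes within a library.

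The libraries held 64695292, 145925353 and 137188648 unique molecular identifiers (UMIs, each standing for 1 captured RNA molecule), and 26882 barcodes were kept for having 500 or more genes and no more than 15% mt- UMIs, which come from mitochondrially encoded genes. Cells were classed by fixed marker genes, none of which is among the 10 genes. Nucleus pulposus-like (NP-like) cells, with a UMI of at least 3 of Krt8, Krt18, Krt19 and T, numbered 477, 113 and 25 in libraries 1, 2 and 3, or 615 in all. Krt8, a keratin of notochord-derived cells, stood at 2227, 2750 and 4876 CPM (UMIs scaled to a total of 1000000 per class and library) in these cells and at no more than 2.54 CPM in chondrocyte-like cells. Krt8 is 1 of the gate's markers, so this difference was set by the selection and is no check of the class. Chondrocyte-like cells numbered 628, 173 and 35. Despite the sort, 17073 barcodes had markers of blood or marrow lineages. The share of NP-like cells with under 1% mt- UMIs differed between libraries and was lowest in library 2. It was 88.1% in library 1 (420 of 477), 29.2% in library 2 (33 of 113) and 68.0% in library 3 (17 of 25). NP-like cells under 1% also had fewer UMIs (medians of 2513.5, 3450 and 1250, against 5335, 10122.5 and 4442.5 at 1% or more) and a lower share of Malat1, a nuclear RNA (0.0663%, 0.105% and 0.0682% of UMIs, against 1.5%, 2.43% and 3.47%). The part of these differences in the results below was not tested, so differences of the 10 genes from other classes, and those called for named pathway genes against chondrocyte-like cells, are also given for the cells with at least 1% mt- UMIs alone. Libraries shared 16, 22 and 33 barcodes in their pairs, and no NP-like cell of 1 library was NP-like in another under the same barcode. A gate for annulus or tendon cells took 46 cells and was left unnamed. Its leading genes were Tnmd and Thbs4, both markers of the gate, then Tac1, Angptl7, Kera, Pcsk1n, Prph, Adamts8, Cilp2 and Stmn3. Some of the latter are genes of sensory neurons. At 53.1 ± 7.90 CPM of Slc12a2 and 131 ± 101 CPM of Aqp1 (SD, n = 3), these cells enter no comparison of named classes below.

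The nucleus pulposus is the gel at the centre of the disc, and the charged proteoglycans of its matrix hold sodium and water, so its cells live in a salty medium whose strength changes with load. Cells in such a medium regulate their volume by taking up ions through cotransporters and then by gathering organic osmolytes such as myo-inositol, taurine and sorbitol, many of whose genes are targets of the transcription factor NFAT5. On swelling, volume-regulated anion channels let chloride and osmolytes out, while aquaporins carry water and the sodium pump sets the ion gradients.

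The positions of 9 of the 10 genes are given here, on GRCm38 (mm10) in the GENCODE vM21 annotation, and each value is over the whole protein-coding gene. Slc5a3 lies on chromosome 16 from 92058322 to 92087473, Slc6a6 on chromosome 6 from 91684053 to 91759066 and Nfat5 on chromosome 8 from 107293470 to 107379517. Akr1b3 lies on chromosome 6 from 34302434 to 34317478, Aqp1 on chromosome 6 from 55336432 to 55348555 and Aqp3 on chromosome 4 from 41092722 to 41098183. Trpv4 lies on chromosome 5 from 114622152 to 114658421, Atp1b1 on chromosome 1 from 164437109 to 164458355 and Lrrc8a on chromosome 2 from 30237715 to 30263790. RefSeq promoter windows on GRCm38.p6, each from 250 bases before a gene's RefSeq start to 50 after it, matched 7 of the 10 genes. RefSeq starts can differ from the GENCODE starts above, and the Aqp1 window ends before the GENCODE start at 55336432. These are the windows of 2 genes whose levels were low in NP-like cells and high in another class, Slc5a3 at chr16:92058072-92058371 on the plus strand, with the GC box GGGCGG in capitals, and Aqp1 at chr6:55336049-55336348 on the plus strand, with the motif CACCC (or GGGTG on the other strand) in capitals.
Slc5a3: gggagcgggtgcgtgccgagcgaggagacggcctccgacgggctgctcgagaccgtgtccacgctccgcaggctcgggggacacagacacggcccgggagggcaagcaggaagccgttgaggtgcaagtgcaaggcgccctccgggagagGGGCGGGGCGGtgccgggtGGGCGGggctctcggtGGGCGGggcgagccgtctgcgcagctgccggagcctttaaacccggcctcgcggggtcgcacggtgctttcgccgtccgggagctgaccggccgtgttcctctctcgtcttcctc
Aqp1: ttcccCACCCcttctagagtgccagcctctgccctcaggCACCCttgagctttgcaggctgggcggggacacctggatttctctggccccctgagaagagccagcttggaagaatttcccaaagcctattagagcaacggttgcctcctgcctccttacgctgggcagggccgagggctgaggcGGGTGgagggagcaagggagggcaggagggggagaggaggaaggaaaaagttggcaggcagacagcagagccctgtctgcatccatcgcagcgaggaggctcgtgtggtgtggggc
The Slc5a3 window held 4 GGGCGG matches, of which 2 overlap, and the Aqp1 window held 3 CACCC matches. GGGCGG or its complement CCGCCC was found in 7 of the 7 windows and in 35.66% of all 32851 windows, and CACCC or GGGTG in 7 of the 7 and in 57.52%. TGGAAA or TTTCCA, the core bound by NFAT factors, was found in 0 of the 7 windows and in 21.43% of all windows. The windows of the 7 genes had a GC content of 62.7% to 73.3%, above the median of 52.67% over all windows. A match is a run of letters and not a binding site.

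Of the 10 genes, NP-like cells had 1 at a higher level and 5 at a lower level than chondrocyte-like cells in the same libraries. Slc12a2, the sodium, potassium and chloride cotransporter, was the higher one. The osmosensitive channel gene Trpv4, the myo-inositol and taurine transporters Slc5a3 and Slc6a6, the transcription factor Nfat5 and the aldose reductase Akr1b3 were lower, and 7 of the 10 had enough UMIs to be tested. In this fit (edgeR on UMIs summed per library and class, library as block), 2608 of 9206 genes, or 28.3%, passed an adjusted p of 0.05 (9.78% were higher in NP-like cells, 18.6% were lower). The median log2 fold change of the 7 was -1.05, against -0.22 over all genes tested. Against the blood and marrow classes, 9 of the 10 were tested, 3 were higher and 3 were lower, in a fit that called 5094 of 12343 genes, or 41.3%, with 18.5% higher and 22.8% lower. Their median was 0.26, against -0.23 over all genes tested, which became -0.46 when edgeR used relative log expression size factors. Both fits hold the same NP-like sums.

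**Figure D1:**
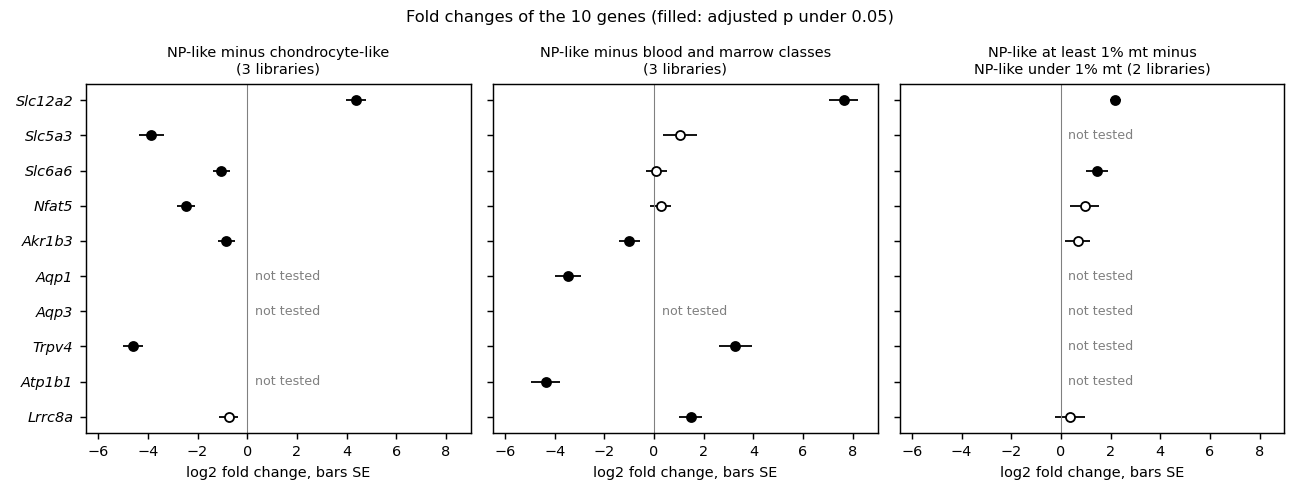
Log2 fold changes (horizontal axes, bars are SE) of the 10 genes (vertical axis) in NP-like against chondrocyte-like cells, in NP-like cells against the blood and marrow classes, and in NP-like cells with at least 1% mt- UMIs against those under 1%. Filled points passed an edgeR adjusted p of 0.05. Slc12a2 lies to the right of 0 in all 3 panels, and Trpv4 lies at -4.61 against chondrocyte-like cells and at 3.28 against blood and marrow classes.

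Slc12a2 encodes NKCC1, which brings sodium, potassium and chloride into the cell together and restores the volume of a shrunken cell. NP-like cells held 363, 1178 and 420 CPM of it in libraries 1, 2 and 3, from 673, 1220 and 30 UMIs. Chondrocyte-like cells held 37.8, 16.3 and 30.1 CPM. Library 2 was the highest for NP-like cells and the lowest for chondrocyte-like cells, and the classes did not overlap. The level was 20.8-fold higher in NP-like cells (log2 fold change 4.38, SE 0.39, edgeR adjusted p = 6.97e-27, higher in 3 of 3 libraries). It was 5.23 without library 1 and 3.59 without library 2, all past the threshold. For NP-like cells with at least 1% mt- UMIs alone, from libraries 1 and 2, it was 5.17 (edgeR adjusted p = 1.06e-06), and for those under 1% it was 2.70 (6.64e-12).

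No other named class came near this level of Slc12a2 in the sum of all NP-like cells. The next was the endothelial-like class, at 67.9, 42.2 and 59.5 CPM, followed by the chondrocyte-like class. The range of all NP-like cells did not overlap that of any named class. NP-like cells under 1% mt- UMIs alone stood at 32.5 to 212 CPM, which overlapped the endothelial-like range. The lowest of these values came from 17 cells in library 3. Against blood and marrow classes, which held 2.36 ± 0.651 CPM (SD, n = 3), the log2 fold change was 7.63 (SE 0.58, edgeR adjusted p = 2.96e-37), and 8.26 for NP-like cells with at least 1% mt- UMIs alone. A UMI of Slc12a2 was found in 39.8%, 73.5% and 28.0% of NP-like cells and in 32.9%, 34.0% and 27.7% of endothelial-like cells. In neutrophil-like cells, the lowest class, the shares were 0.26%, 0.758% and 0.517%. These cells had deeper median counts (8618 to 10210 UMIs, against 2069 to 7833 in NP-like cells). With each cell thinned to 1500 UMIs, the shares in NP-like cells were 25.8%, 63.0% and 33.3%. In endothelial-like cells the thinned shares were 10.3%, 11.5% and 10.6%. For NP-like cells under 1% mt- UMIs alone the thinned share was 13.2% ± 11.7 (SD, n = 3).

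**Figure D2:**
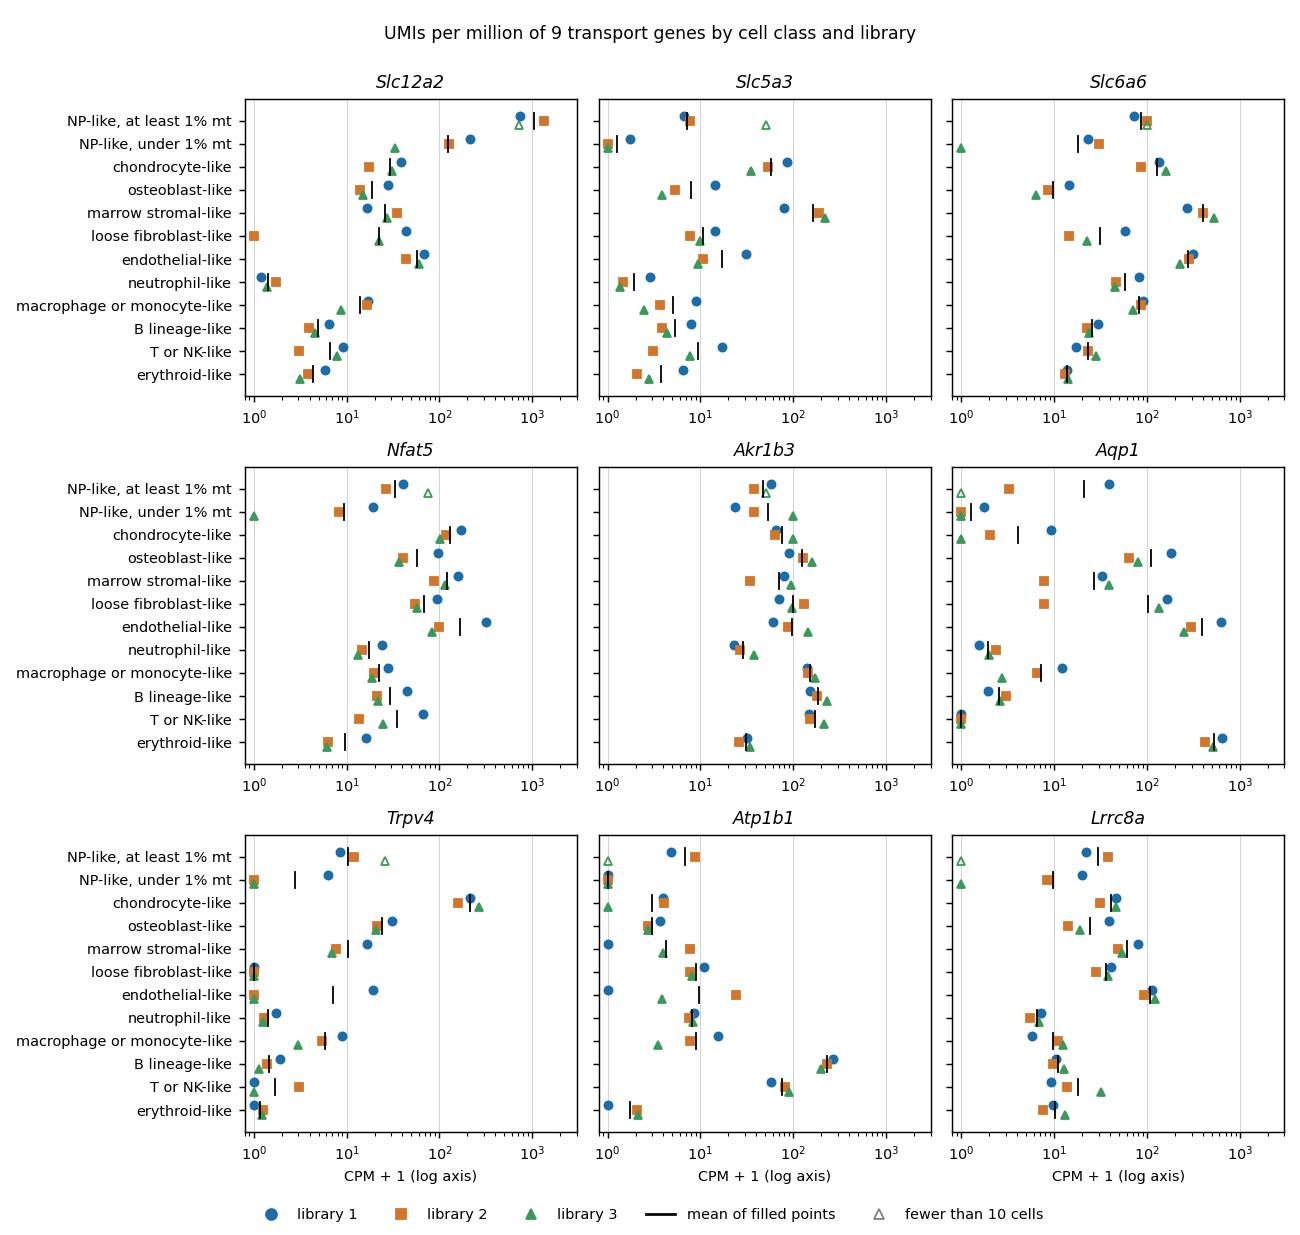
CPM plus 1 (horizontal log axes) of 9 of the genes by cell class (vertical axis). Points are libraries, open where the class had fewer than 10 cells, and vertical lines are means of the filled points. Slc12a2 is highest in the NP-like cells with at least 1% mt- UMIs, Trpv4 in chondrocyte-like cells, Atp1b1 in B lineage-like cells and Aqp1 in erythroid-like and endothelial-like cells. Aqp3 is left out, having no UMI in most classes.

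Slc5a3 encodes SMIT1, the sodium-coupled transporter of myo-inositol. It was found as 4, 6 and 2 UMIs in NP-like cells, which give 2.16, 5.79 and 28.0 CPM. Chondrocyte-like cells held 84.5, 52.9 and 33.8 CPM. The 28.0 CPM of library 3 rests on 1 cell, and the classes did not overlap. The log2 fold change was -3.86 (SE 0.49, edgeR adjusted p = 7.95e-14, lower in 3 of 3 libraries), and -2.78 without library 1. It was -3.45 for NP-like cells with at least 1% mt- UMIs alone. The difference from blood and marrow classes was 1.04 (edgeR adjusted p = 0.229) and did not pass the test, nor did it for NP-like cells with at least 1% mt- UMIs alone (1.18, 0.278). It passed without library 1 (2.15, 0.0343), with NP-like barcodes that met a second gate kept (2.12, 0.000189) and with at least 2 NP markers (1.49, 0.0450), and it passed as lower for NP-like cells under 1% alone (-2.85, 0.0158). Marrow stromal-like cells were highest, at 78.5, 188 and 221 CPM, and overlapped the chondrocyte-like class. Slc5a3 UMIs were found in 3.09% ± 1.96 of NP-like cells, in 1.08% ± 0.98 of the more deeply sequenced neutrophil-like cells and in 2.58% ± 1.00 of B lineage-like cells (SD, n = 3). With cells thinned to 1500 UMIs these shares were 0.309%, 0.123% and 0.778%. Slc5a3 shares its start and 159 of its 10913 exon bases with Mrps6 on the same strand, so the assignment of some UMIs between them is uncertain. Mrps6 itself stood at 27.0, 22.2 and 0 CPM in NP-like cells and at 75.1, 82.4 and 67.6 CPM in chondrocyte-like cells.

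Slc6a6 encodes the taurine transporter TauT. NP-like cells held 36.2, 89.8 and 56.0 CPM, and chondrocyte-like cells held 134, 84.4 and 158 CPM. In library 2 the NP-like level was slightly above the chondrocyte-like one, and the classes overlapped. The log2 fold change was -1.05 (SE 0.33, edgeR adjusted p = 0.00725, lower in 2 of 3 libraries). The call was lost without library 1 (-0.40, edgeR adjusted p = 0.585), without library 3 (-0.78, 0.146), with DESeq2 (0.184) and in NP-like cells with at least 1% mt- UMIs alone (-0.40, 0.44), and in 8 of 20 alternatives in all. Among named classes Slc6a6 was highest in marrow stromal-like cells, at 267, 395 and 524 CPM, and in endothelial-like cells, at 312, 278 and 224 CPM, whose ranges overlapped each other. Neither overlapped the chondrocyte-like class. Relative to blood and marrow classes NP-like cells stood at 0.09 on the log2 scale (edgeR adjusted p = 0.882), with 0.40 (0.469) for those with at least 1% mt- UMIs alone, 0.93 (0.0336) without library 1 and -0.12 with relative log expression size factors.

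Nfat5 encodes the tonicity-responsive transcription factor. NP-like cells held 24.3, 23.2 and 42.0 CPM and chondrocyte-like cells 171, 118 and 101 CPM. The lowest chondrocyte-like library was above the highest NP-like one. The log2 fold change was -2.47 (SE 0.36, edgeR adjusted p = 1.11e-10, lower in 3 of 3 libraries), and -2.24 for NP-like cells with at least 1% mt- UMIs alone. The level in endothelial-like cells was 315, 97.9 and 82.1 CPM and in marrow stromal-like cells 157, 87.1 and 115 CPM, both overlapping the chondrocyte-like class. Relative to blood and marrow classes Nfat5 in NP-like cells stood at 0.26 on the log2 scale (edgeR adjusted p = 0.673) and did not pass the test, with 0.30 (0.637) for those with at least 1% mt- UMIs alone. It passed with NP-like barcodes that met a second gate kept (0.89, 0.0127).

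Akr1b3 encodes aldose reductase, which makes sorbitol from glucose. NP-like cells held 32.4, 36.7 and 70.1 CPM and chondrocyte-like cells 63.5, 62.0 and 97.7 CPM. Library 3 was the highest in both classes, and their ranges overlapped. The log2 fold change was -0.85 (SE 0.34, edgeR adjusted p = 0.0480, lower in 3 of 3 libraries), and the call was lost when libraries 1, 2 or 3 were left out (edgeR adjusted p = 0.275, 0.319 and 0.158) and held in 4 of 20 alternatives in all. For NP-like cells with at least 1% mt- UMIs alone it was -0.54 (edgeR adjusted p = 0.281). B lineage-like cells were highest, at 149, 177 and 229 CPM, and T or NK-like and macrophage or monocyte-like cells overlapped them. Relative to blood and marrow classes Akr1b3 in NP-like cells stood at -1.0 on the log2 scale (edgeR adjusted p = 0.0420), lost without library 2 (-0.92, 0.315) and in NP-like cells with at least 1% mt- UMIs alone (-0.84, 0.0994), and in 7 of 18 alternatives in all.

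Aqp1 and Aqp3 encode water channels, and the second also passes glycerol. Aqp1 was found as 21, 2 and 0 UMIs in NP-like cells, which give 11.3, 1.93 and 0 CPM. In library 1, 20 of the 21 UMIs lay in 3 cells with at least 1% mt- UMIs. Chondrocyte-like cells held 8.12, 1.02 and 0 CPM, and the gene had too few UMIs to be tested between the classes. Erythroid-like cells held 638, 413 and 513 CPM and endothelial-like cells 616, 296 and 246 CPM, which overlapped. Aqp1 UMIs were found in 0.87% ± 0.89 of NP-like cells and in 1.25% ± 0.50 of neutrophil-like cells (SD, n = 3). The neutrophil-like cells were more deeply sequenced. With cells thinned to equal depth these shares were 0.788% ± 0.956 and 0.210% ± 0.131. The levels were 4.42 ± 6.07 and 0.953 ± 0.402 CPM. The SDs of the NP-like values exceed their means, so whether Aqp1 lies above background in NP-like cells is not decided. Against blood and marrow classes, which hold the erythroid-like cells, Aqp1 was lower in NP-like cells (log2 fold change -3.46, SE 0.52, edgeR adjusted p = 4.47e-10), and the value was -6.01 without library 1, -2.52 without library 2 and -2.51 for NP-like cells with at least 1% mt- UMIs alone.
Aqp3 had 0 UMIs in all 615 NP-like cells, which allows a share of cells with a UMI of up to 0.488%, and 0 in all 836 chondrocyte-like cells, which allows up to 0.359%. Depth allows an Aqp3 level in NP-like cells that was not detectable here.

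Trpv4 encodes a calcium-permeable channel that opens on swelling and stretch. Chondrocyte-like cells held 210, 159 and 267 CPM, from 1269, 313 and 71 UMIs. NP-like cells held 5.94, 9.65 and 14.0 CPM, from 11, 10 and 1 UMIs. The classes were far apart in every library, and chondrocyte-like cells did not overlap any other named class. The level was 24.4-fold lower in NP-like cells (log2 fold change -4.61, SE 0.41, edgeR adjusted p = 1.22e-27, lower in 3 of 3 libraries) and -4.30 for those with at least 1% mt- UMIs alone. Osteoblast-like cells were the next class, at 29.7, 20.3 and 19.8 CPM. Trpv4 UMIs were found in 4.46% ± 2.42 of NP-like cells and in 0.56% ± 0.36 of neutrophil-like cells (SD, n = 3), and against blood and marrow classes Trpv4 was higher in NP-like cells (log2 fold change 3.28, SE 0.68, edgeR adjusted p = 7.58e-06, higher in 3 of 3 libraries), with 3.17 for those with at least 1% mt- UMIs alone.

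Lrrc8a encodes the subunit that volume-regulated anion channels require. NP-like cells held 19.4, 32.8 and 0 CPM and chondrocyte-like cells 44.7, 30.0 and 45.1 CPM. Library 2 was higher in NP-like cells and libraries 1 and 3 were lower. The log2 fold change of -0.76 (SE 0.39, edgeR adjusted p = 0.140) did not pass the test, nor did that for NP-like cells with at least 1% mt- UMIs alone (-0.42, 0.536), while that for those under 1% did (-1.06, 0.0479). Endothelial-like cells were highest, at 112, 90.2 and 119 CPM, and overlapped no other named class. Against blood and marrow classes Lrrc8a was higher in NP-like cells (log2 fold change 1.48, SE 0.46, edgeR adjusted p = 0.00475, higher in 2 of 3 libraries), with 1.68 for those with at least 1% mt- UMIs alone. The call was lost without library 2 (0.94, 0.38), with DESeq2 (0.262), with at least 2 NP markers (0.272) and for NP-like cells under 1% alone (0.49, 0.391). In library 1 an overlapping gene, Gm28035, on the same strand covers 2853 of 4308 Lrrc8a exon bases, and it took 3 UMIs there against 1287 for Lrrc8a.

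Atp1b1 encodes the beta 1 subunit of the sodium pump, which is needed to bring the pump to the membrane. NP-like cells had 2, 7 and 0 UMIs of it, or 1.08, 6.76 and 0 CPM, and chondrocyte-like cells held 2.98, 3.05 and 0 CPM. The classes overlapped, and the gene was not tested between them. B lineage-like cells held 268, 228 and 198 CPM and T or NK-like cells 56.9, 80.2 and 88.4 CPM, and neither overlapped another named class. Against blood and marrow classes Atp1b1 was lower in NP-like cells (log2 fold change -4.37, SE 0.58, edgeR adjusted p = 8.58e-13, lower in 3 of 3 libraries), with -3.49 without library 1, -5.93 without library 2 and -3.65 for NP-like cells with at least 1% mt- UMIs alone. Its UMIs were found in 0.73% ± 0.92 of NP-like cells and in 7.24% ± 0.83 of neutrophil-like cells (SD, n = 3). The neutrophil-like cells were more deeply sequenced. With cells thinned to equal depth these shares were 0.394% ± 0.478 and 0.541% ± 0.109. The SDs of the NP-like shares exceed their means, so whether Atp1b1 lies above background in NP-like cells is not decided. Atp1b1 overlaps Nme7 on the opposite strand over 575 of its 3081 exon bases.

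Within the NP-like cells, Slc12a2 and Slc6a6 were higher in those with at least 1% mt- UMIs than in those under 1%, and 5 of the 10 genes were tested. The fit used libraries 1 and 2, since library 3 had 8 cells in the first group, and called 1112 of 6419 genes, or 17.3%, with 10.4% higher and 6.9% lower. With only these libraries, few residual degrees of freedom remain, and the p-values lean on variance shared across genes. The median log2 fold change of the 5 was 0.95, against 0.07 over all genes tested. Slc12a2 stood at 741 and 1338 CPM in the first group and at 212 and 124 CPM in the second, with 715 and 32.5 CPM in library 3. The first group was higher in every library. The log2 fold change was 2.20 (SE 0.23, edgeR adjusted p = 5.22e-19), and 1.79 (0.0611) with the split at 2%, where only 16 genes were called. Slc6a6 stood at 71.7 and 99.0 CPM against 21.9 and 29.3 CPM, which did not overlap. Its log2 fold change was 1.45 (SE 0.44, edgeR adjusted p = 0.00820), lost in 5 of 17 alternatives, namely with DESeq2 (0.48), without the block (0.0547), with the split at 2% (0.94, 0.247), with no filter on low counts (0.176) and with at least 2 NP markers (0.0577). Of the others, Nfat5 (0.95, 0.289), Akr1b3 (0.68, 0.398) and Lrrc8a (0.37, 0.751) did not pass the test. With library 3 added, by a minimum of 5 cells chosen after the data were seen, Slc12a2 was 2.52 and Slc6a6 1.69. Near the split, 10, 1 and 1 NP-like cells had 0.5% to 1% and 12, 6 and 5 had 1% to 2%.

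**Figure D3:**
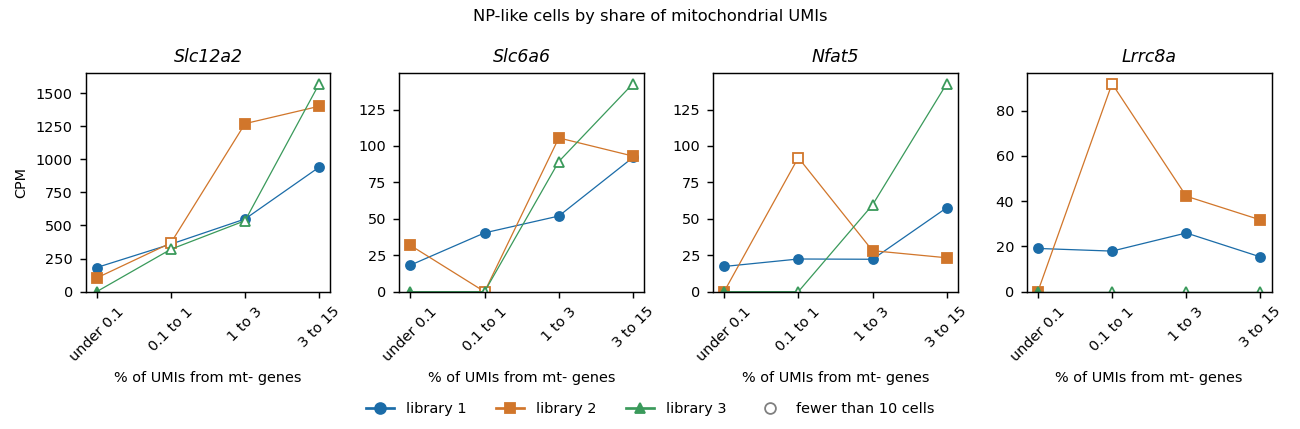
CPM (vertical axes, starting at 0) of Slc12a2, Slc6a6, Nfat5 and Lrrc8a in NP-like cells by the percent of UMIs from mt- genes (horizontal axes, 4 ranges), with 1 line per library and open points where a range held fewer than 10 cells. In library 1 Slc12a2 goes from 182 CPM under 0.1% to 941 CPM at 3% to 15%, and in library 2 from 103 to 1400 CPM.

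The further genes of these pathways were 69 in 7 lists, drawn up with earlier results of these data known. Against chondrocyte-like cells, 43 were tested. In NP-like cells 8 of these were higher and 14 were lower, and their median log2 fold change was -0.61. Over all genes tested in this fit, 28.3% were called (9.78% higher, 18.6% lower) and the median was -0.22. Of the 11 tested genes listed under osmolyte uptake and synthesis, 4 were higher and 2 lower. The largest was Cdo1, cysteine dioxygenase, a step of taurine synthesis, at 734, 507 and 350 CPM in NP-like and 14.4, 15.8 and 30.1 CPM in chondrocyte-like cells. The groups did not overlap, and the log2 fold change was 4.95 (edgeR adjusted p = 5.76e-33), with 4.58 for NP-like cells with at least 1% mt- UMIs alone. Sord encodes sorbitol dehydrogenase, which uses up sorbitol, so not every gene of this list takes up or makes an osmolyte. Sord stood at 29.5 ± 1.44 against 2.98 ± 0.874 CPM (SD, n = 3), with a log2 fold change of 3.41 (edgeR adjusted p = 2.58e-10). Slc6a12, Hspa4l and Slc38a2 of the osmolyte list are named after their values were seen. The transporter gene Slc6a12 was higher (1.09, edgeR adjusted p = 0.00663) and called in 15 of 20 alternatives, lost with DESeq2 (0.0947). Hspa4l was higher (1.11, 0.0323) and called in 13 of 20. The transporter gene Slc38a2 was lower (-2.28, 2.56e-10) and called in 20 of 20. For NP-like cells with at least 1% mt- UMIs alone they were 1.14, 1.32 and -1.40, which passed the test. Of the cotransporters and kinases, 7 were tested, 2 were higher and 3 lower. All 5 are named, after their values were seen. The kinase genes Wnk1 and Stk39, the second of which encodes SPAK, were higher, Wnk1 at 754 ± 211 against 112 ± 32.7 CPM and Stk39 at 202 ± 43.5 against 28.3 ± 1.87 CPM (SD, n = 3). Their log2 fold changes were 2.69 (edgeR adjusted p = 4.32e-13) and 2.67 (1.15e-14). Wnk4, a kinase of the same family as Wnk1, was lower, at 0.862 ± 0.815 against 20.6 ± 5.16 CPM (SD, n = 3), with a log2 fold change of -3.66 (edgeR adjusted p = 1.35e-06) from 4 UMIs in NP-like cells, and was called in 20 of 20 alternatives. Cab39, which encodes a partner of SPAK, was lower (-1.36, edgeR adjusted p = 0.00113) and was called in 16 of 20 alternatives, with the call lost without library 1 (0.104) and with DESeq2 (0.0676). The potassium chloride cotransporter gene Slc12a4 was lower (-1.12, edgeR adjusted p = 0.0188) and was called in 12 of 20 alternatives, with -0.32 (0.737) without library 1.

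Of the 7 tested pump subunits and FXYD modulators, small proteins that tune the pump, 2 were higher and 3 lower. Among all genes tested, 28.3% were called in this fit. The pump's beta 3 subunit Atp1b3 stood at 187 ± 55.4 against 149 ± 7.87 CPM (SD, n = 3) and did not pass the test (edgeR adjusted p = 0.686). Fxyd6 was higher, at 1404, 1647 and 1976 against 130, 162 and 297 CPM (log2 fold change 3.11, edgeR adjusted p = 3.78e-15). The other gene called higher, Fxyd7 (1.74, edgeR adjusted p = 0.00762), was higher in 1 of 3 libraries. It stood at 17.1 ± 29.6 against 6.56 ± 3.63 CPM (SD, n = 3). With DESeq2 it was -0.45 (adjusted p = 0.921), and it was called in 10 of 14 alternatives. For NP-like cells with at least 1% mt- UMIs alone it was 3.48 (edgeR adjusted p = 0.0035). Fxyd2 was lower, at 49.7, 14.5 and 14.0 against 1118, 1140 and 120 CPM (log2 fold change -5.18, edgeR adjusted p = 3.19e-27), with -6.08 without library 1 and -4.08 without library 2. Fxyd3 was lower too (-4.45, 5.57e-26), with -3.38 without library 1 and -6.11 without library 2. The volume channel subunits Lrrc8c (-2.02, 0.00067) and Lrrc8d (-1.76, 0.00329) were lower by edgeR, and these were lost with DESeq2 (0.476 and 0.124), Lrrc8c also without library 1 (-1.42, 0.191), where Lrrc8d was not tested. Lrrc8b (0.75, 0.485) did not pass. Of the 9 further aquaporins none was tested. Piezo2, a mechanosensitive channel, had 0 UMIs in NP-like cells and 15.6, 13.7 and 15.03 CPM in chondrocyte-like cells, so it was at least 14.9-fold lower, taking a floor of 3 UMIs over the NP-like group. For NP-like cells with at least 1% mt- UMIs alone, the log2 fold changes were 2.88 for Sord, 2.82 for Wnk1, 2.42 for Stk39, 2.93 for Fxyd6, -3.73 for Wnk4, -5.02 for Fxyd2, -3.71 for Fxyd3, -0.92 for Cab39 and -1.53 for Lrrc8c, which passed the test. Those of Lrrc8d (-0.96, edgeR adjusted p = 0.183) and Slc12a4 (-0.78, 0.171) did not.

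**Figure D4:**
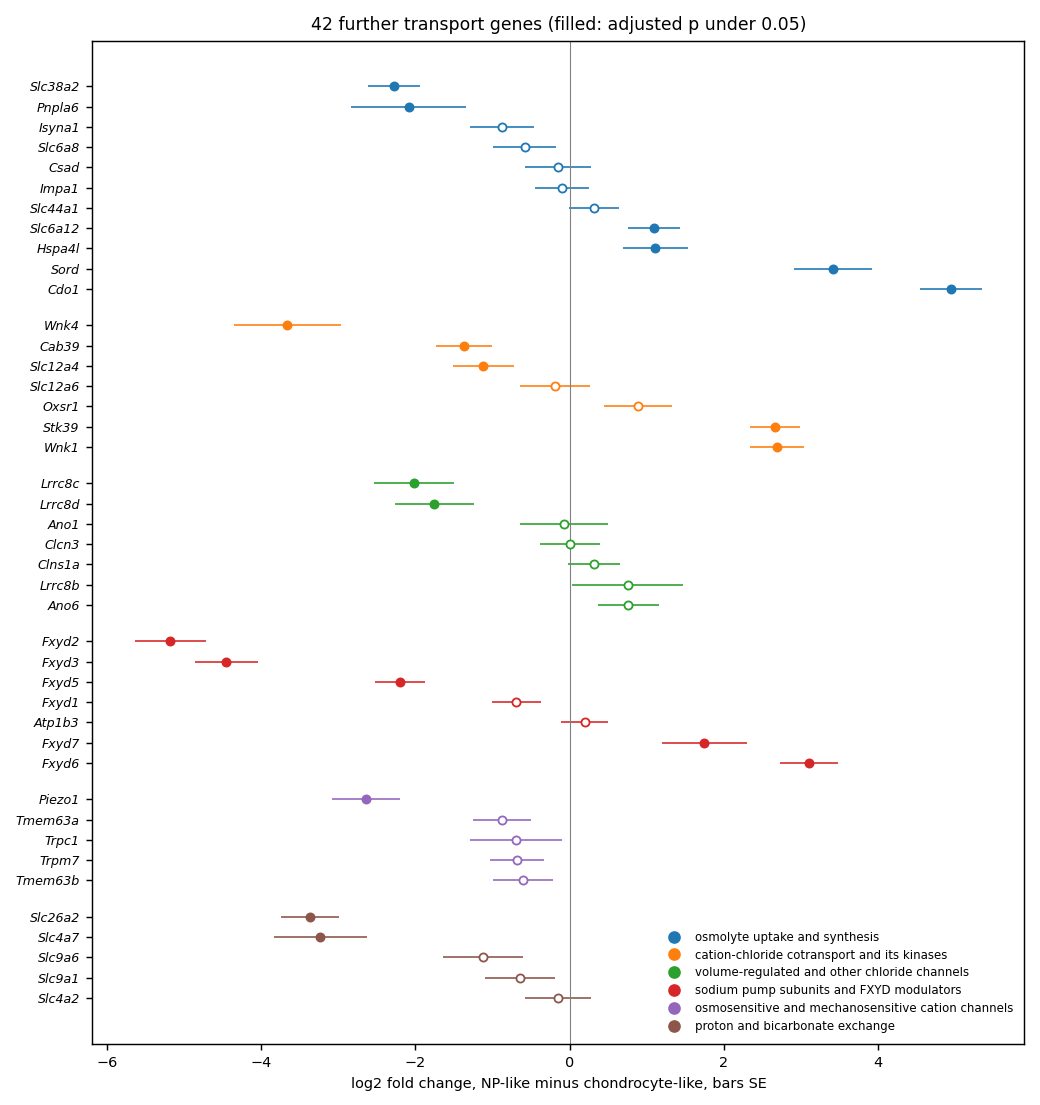
Log2 fold changes in NP-like against chondrocyte-like cells (horizontal axis, bars are SE) for 42 of the 43 tested pathway genes (vertical axis), coloured by list and filled where the edgeR adjusted p was under 0.05. Cdo1, Sord and Fxyd6 lie farthest to the right, at 4.95, 3.41 and 3.11, and Fxyd2 and Fxyd3 farthest to the left. Piezo2 is left out because it had 0 UMIs in NP-like cells.

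Against the blood and marrow classes, 49 pathway genes were tested. In NP-like cells 17 of these were higher and 11 were lower, and their median was 0.26. Over all genes tested, 41.3% were called (18.5% higher, 22.8% lower) and the median was -0.23. Cdo1 (9.24), Fxyd6 (9.02) and Fxyd1 (7.39) had the largest log2 fold changes upwards. Slc12a3, the kidney sodium chloride cotransporter, and the channel gene Trpv2 were lower, with 1 UMI each in NP-like cells against 16.6 ± 2.31 and 12.4 ± 1.30 CPM (SD, n = 3). Aqp9 had 0, and was at least 3.87-fold lower with the same floor. Atp1b3 (1.19, edgeR adjusted p = 0.0124) was higher and lost the call without library 2 (0.318). Within NP-like cells, 28 were tested, and 6 were higher and 3 lower in those with at least 1% mt- UMIs. Their median was 0.49, against 0.07 over all genes tested, of which 17.3% were called (10.4% higher, 6.9% lower). Cdo1 (-1.45), Fxyd6 (-1.03) and Fxyd1 (-0.84) were the lower ones, while Atp1b3 (1.41) was higher, as were Slc12a7 (2.99), Slc26a2 (2.93) and Isyna1 (2.66), the last 3 from 3 to 5 UMIs in the group under 1%. With the split at 2% the calls of Cdo1, Fxyd6, Fxyd1, Atp1b3, Slc12a7 and Isyna1 were lost (edgeR adjusted p = 0.121 to 0.375), and Slc26a2 was not tested. With DESeq2 those of Fxyd6 (0.0503), Fxyd1 (0.72) and Atp1b3 (0.109) were lost, and Fxyd1 was called in 7 of 17 alternatives. Slc12a7, Slc26a2 and Isyna1 got no adjusted p from DESeq2. They were called in 9 of 13, 9 of 12 and 10 of 14 alternatives.

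The genes whose level over 13 gated classes, with the NP-like cells as 2 of them, was most like that of Slc12a2, by Pearson r of log2(CPM + 1) class means among 6546 genes, were Slc7a2 (r = 0.919), Aldh6a1 (0.912) and Qk (0.908), each highest in NP-like cells with at least 1% mt- UMIs. For Trpv4 they were Adgrg6 (0.924), Frzb (0.918) and Mia (0.917), each highest in chondrocyte-like cells. For Aqp1 they were Cd59a (0.903), Tmcc2 (0.892) and Samd14 (0.859), highest in erythroid-like cells, and for Atp1b1 they were Gm8369 (0.907), Slamf6 (0.893) and Cd69 (0.890), highest in B lineage-like cells. The class means come from the same 3 libraries, so these r values are descriptions.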

How the data were processed

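The 3 libraries were analysed as 10x matrices of UMI counts per gene and barcode. Per the submitters' processing notes, Cell Ranger 3.0.2, Seurat 4 and mm10 were used, and per the file headers the deposited counts came from versions 3.0.1 (library 1) and 6.0.0 (libraries 2 and 3). The authors deposited raw counts with no normalization. Counting strand and introns are not given in the sources used here. The 30406 gene identifiers shared by the libraries hold 99.6% to 99.9% of UMIs.

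The genes, pathway lists and cell markers were chosen with earlier results of these data known. Kept barcodes had 500 or more genes and up to 15% mt- UMIs. Each took a class from fixed markers (at least 3 or 4 of a list). Barcodes meeting more than 1 gate (6.46% to 12.3%) were left out as possible doublets, and 16.7% to 17.1% stayed unnamed. Counts were summed per library and class with at least 10 cells and tested with edgeR 4.0.16 (quasi-likelihood, filterByExpr, TMM, Benjamini-Hochberg over all genes tested, two-sided) in R 4.3.3. The library was the replicate block, since each library's 2 sums share 1 pool of mice. SE is the absolute log2 fold change over the square root of F. CPM divides by all UMIs of the sum. Intervals and floors (3 UMIs, or 3 cells for shares) cover counting error only. In the fit within NP-like cells the mt- genes were left out. DESeq2 1.42.0 was an alternative, and the fit was tested on simulated data. Python 3.11.15, numpy 2.4.6, pandas 2.3.3, scipy 1.17.1 and matplotlib 3.10.9 were used.

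All 10 genes are named. Of the pathway genes, those named by rule had the 3 largest called changes each way and the same direction in every library. Aquaporins, Lrrc8 or pump subunits with at least 20 CPM in a class mean were named too. The called cotransporters and kinases, Slc6a12, Hspa4l, Slc38a2 and Fxyd7 were added after their values were seen. Some genes of these lists are not reported here and enter no list count. For each gene the 3 genes most alike had at least 50 CPM in 1 class mean. Libraries are pools and the block takes up differences in level between them. The p-values thus rest on how the class difference within a library varied over the 3 pools, or over 2 within NP-like cells. Few residual degrees of freedom remain in every fit, so the p-values also lean on variance shared across genes. A very small p-value is therefore no measure of the spread over pools alone. No column of a sample outside the series was found.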

Additional observations from a re-analysis of the deposited data

How the results depend on the processing

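The calls of Slc12a2, Trpv4, Slc5a3 and Nfat5 against chondrocyte-like cells, and of Slc12a2, Trpv4, Aqp1 and Atp1b1 against blood and marrow classes, passed the threshold in the same direction under every alternative fitted. The count of genes called against chondrocyte-like cells was 1556 with DESeq2 in place of 2608 with edgeR, and 1413 to 2652 when 1 library was left out. Against blood and marrow classes it was 3430 to 5461 when 1 library was left out. With NP-like cells under 1% mt- UMIs alone, Slc5a3 (-2.85), Slc6a6 (-2.02) and Nfat5 (-1.31) turned lower than blood and marrow classes. Within NP-like cells the count, 1112, was the least stable. It was 152 with DESeq2 (73.7% higher, against 60.2%), 447 with no filter on low counts, 404 with no replicate block, 16 with the split at 2%, 416 without the 10% of cells with most UMIs, 668 with at least 200 genes and 1773 with at least 2 NP markers. With alternatives added after the data were seen, it was 643 with a minimum of 5 cells and 1753 with barcodes that met the NP and chondrocyte gates kept as NP-like. The cause was not tested. Leaving out 1 library there leaves 1 pair and no residual degrees of freedom, so that alternative could not be fitted. With no replicate block the count was 2328 against chondrocyte-like cells and 5149 against blood and marrow classes. Few NP-like cells in library 3 (25) limit every value from it.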
